A study of Rattus norvegicus with 9 samples.

Results

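The mitosis and chromosome segregation genes are 45 rat genes that were listed by symbol for what their products do in dividing cells: cyclins and mitotic kinases, the spindle checkpoint, kinetochores, the spindle, cytokinesis and mitotic chromosome structure. This list and the further lists below were chosen with earlier results of these data known. Of the 45 symbols, 44 were found among the 32883 genes of the count table, and *Ccnb2* was not analysed here. In all 3 comparisons below, the 44 genes passed the filter on low counts, which left 13273 genes to test.

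RNA was measured in 9 libraries of cultured wild-type Lewis rat fibroblasts, with 3 libraries each of Fb-Epn from the epineurium, the outer sheath of the sciatic nerve, Fb-Par from the nerve parenchyma inside that sheath, and Fb-Skn from abdominal skin. The donors were male and 10 weeks of age, both nerve types came from the same 2 rats and the skin came from 1 other rat, so the 3 samples of a type cannot be 3 animals. The cells received no treatment and were passaged once in medium with serum before RNA was taken. The cell density of each type at that point is not given in the sources used here, and its part in the 3 comparisons was not tested. Tissue, rat and body site cannot be told apart between Fb-Skn and the nerve-derived types, and p-values measure only the spread between these samples, which may be technical. Total counts per library ranged from 10084584 to 12310506.

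In most cells, entry into mitosis depends on Cdk1 bound to a cyclin, after which chromosomes condense, the spindle attaches to kinetochores, a checkpoint holds anaphase until the attachments are made, and the cell divides at the cleavage furrow. Many of the RNAs for these proteins build up in late S phase and G2 and are low in resting cells. Fibroblasts of an uninjured adult tissue are mostly at rest and start to divide when they are put in culture with serum.

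The 44 genes were highest in Fb-Epn, intermediate in Fb-Skn and lowest in Fb-Par for 43 genes by mean TPM, and *Cdc25c* was the exception. TPM, which the authors deposited, is a level corrected for gene length and scaled to the same total in each library. Summed over the 44 genes, the level was 969, 975 and 959.6 TPM in the Fb-Epn libraries. It was 230.2, 227 and 239 TPM in the Fb-Par libraries and 478, 497 and 496 TPM in the Fb-Skn libraries. The sums of the 3 types did not overlap, and their means stood 4.17-fold apart between Fb-Epn and Fb-Par, 1.97-fold between Fb-Epn and Fb-Skn and 2.11-fold between Fb-Skn and Fb-Par. As a share of all counts, the genes took 0.133% to 0.135% of an Fb-Epn library, 0.0317% to 0.0326% of an Fb-Par library and 0.0667% to 0.0683% of an Fb-Skn library. In bulk RNA, fewer dividing cells and less of these RNAs per dividing cell cannot be told apart.

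Fb-Epn was compared with Fb-Par to ask how fibroblasts of the nerve sheath differ from those inside the nerve. By edgeR's quasi-likelihood test, 44 of the 44 mitosis genes were higher in Fb-Epn at an adjusted p under 0.01, where 20.2% of all tested genes were higher, and 0 were lower, where 18.6% of all tested genes were lower. At an unadjusted p under 0.05, 0 of the genes were lower, and DESeq2 and limma also called 0 lower. The median log2 fold change of the members was 2.28 and that of all tested genes was 0.00. Of the 44, 32 were also more than 4-fold higher, against 4.09% of all tested genes. The TPM of the 3 libraries of each type did not overlap for any of the 44 genes, as for 57.3% of all tested genes.

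Fb-Epn against Fb-Skn gave smaller differences in the same direction. Of the 44 genes, 41 were higher in Fb-Epn (23.0% of all tested genes) and 0 were lower (20.9% of all tested genes) by edgeR's adjusted p. Again 0 were lower at an unadjusted p under 0.05, with DESeq2 or with limma. The genes not called were *Pttg1*, *Cenpa* and *Kif18a*. The median log2 fold change of the members was 0.92, beside 0.00 over all tested genes, and 0 members were more than 4-fold higher, where 6.22% of all tested genes were. The libraries did not overlap in TPM for 44 of the 44 genes, against 61.4% of all tested genes. The split of calls over all genes depended on the scaling, and limma on TPM, which also differs in input and test, gave another. Of the genes called, 3052 of 5830 were higher in Fb-Epn with TMM scaling, 3715 of 5828 with library size only and 3845 of 5576 with limma on log2(TPM + 1).

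Fb-Par against Fb-Skn ran the other way. Here 42 of the 44 genes were lower in Fb-Par (22.4% of all tested genes) and 0 were higher (23.2% of all tested genes) by edgeR's adjusted p, with 0 higher at an unadjusted p under 0.05, with DESeq2 or with limma. The genes not called were *Cdc25c* and *Mad2l1*. The median log2 fold change of the members was -1.38, beside -0.01 over all tested genes, and 1 gene, *Cdca3*, was more than 4-fold lower, against 2.67% of all tested genes. For 41 of the 44 genes the libraries did not overlap in TPM, against 61.7% of all tested genes, and the others were *Cdc25c*, *Mad2l1* and *Incenp*. Over all genes, 3077 of the 6052 called were higher in Fb-Par with TMM scaling, 3737 of 6034 with library size only and 3902 of 5833 with limma on log2(TPM + 1). The 3 comparisons share their libraries, so their counts do not support each other.

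**Figure D1:**
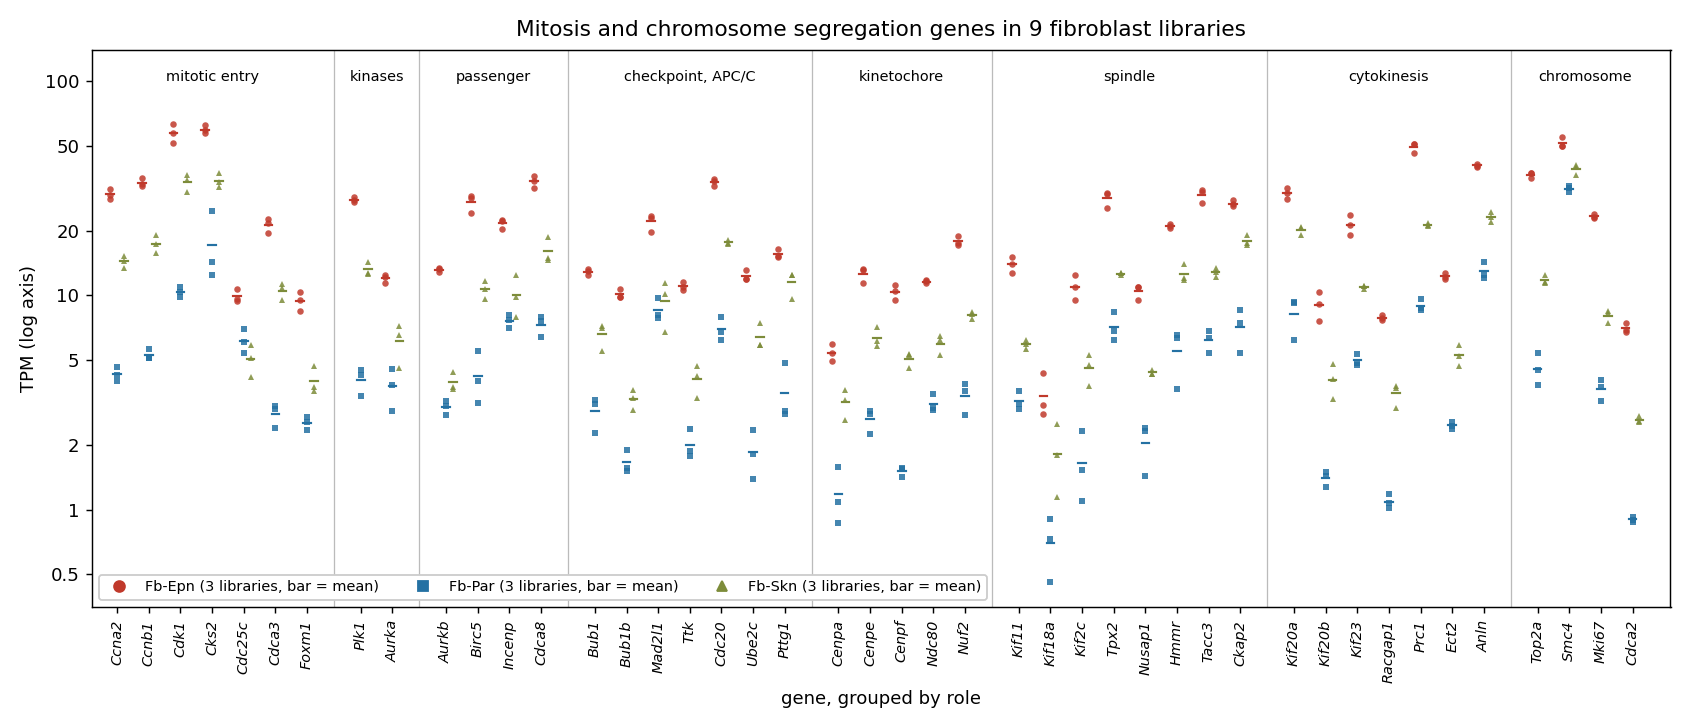
TPM of the 44 mitosis and chromosome segregation genes in each of the 9 libraries on a log axis, grouped by role, with the mean of each type as a bar. Fb-Epn libraries lie above the other types for each gene, and Fb-Skn lies above Fb-Par in mean TPM for all genes but *Cdc25c*.

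The genes of mitotic entry code for Cdk1, its cyclins and the proteins that switch it on. *Ccnb1* (rn6 chr2:30783915-30791221, minus strand), cyclin B1, the partner of Cdk1 at mitotic entry, measured 33.0, 35.5 and 32.4 TPM in Fb-Epn, 5.11, 5.12 and 5.61 TPM in Fb-Par and 15.8, 19.2 and 17.3 TPM in Fb-Skn. The 3 types formed separate ranges, with Fb-Epn at the top and Fb-Par at the bottom. Its log2 fold change was 2.68 ± 0.12 (SE) in Fb-Epn against Fb-Par, 0.81 ± 0.10 in Fb-Epn against Fb-Skn and -1.87 ± 0.12 in Fb-Par against Fb-Skn, with edgeR adjusted p-values of 1.0e-10, 1.1e-05 and 8.2e-09. *Cdk1* (chr20:20576377-20591549, plus strand), the kinase itself, stood at 57.4, 63.3 and 51.5 TPM in Fb-Epn, at 9.82, 10.9 and 10.4 TPM in Fb-Par and at 34.6, 30.4 and 36.6 TPM in Fb-Skn. The ranges again did not overlap, and Fb-Skn lay nearer to Fb-Epn than to Fb-Par on the log scale. Its log2 fold changes were 2.48 ± 0.11, 0.62 ± 0.099 and -1.86 ± 0.12 in the same order (edgeR adjusted p = 1.4e-10, 9.2e-05 and 4.4e-09).

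*Foxm1* (chr4:161685258-161696305, plus strand), a transcription factor that drives many G2 and mitosis genes, had a lower level, with 10.4, 8.50 and 9.55 TPM in Fb-Epn, 2.35, 2.71 and 2.58 TPM in Fb-Par and 4.67, 3.75 and 3.59 TPM in Fb-Skn. Fb-Skn lay closer to Fb-Par here, still without overlap. Its log2 fold changes were 1.90 ± 0.16 in Fb-Epn against Fb-Par, 1.09 ± 0.15 in Fb-Epn against Fb-Skn and -0.81 ± 0.17 in Fb-Par against Fb-Skn (edgeR adjusted p = 1.2e-07, 2.2e-05 and 8.1e-04). *Cdca3* (chr4:157348020-157351604, plus strand), whose product was described as a trigger of mitotic entry, measured 21.7, 19.5 and 22.8 TPM in Fb-Epn, 3.06, 2.40 and 2.95 TPM in Fb-Par and 11.3, 10.8 and 9.50 TPM in Fb-Skn. It showed the lowest value of Fb-Par against Fb-Skn among the 44 genes. That log2 fold change was -2.05 ± 0.17, and those of Fb-Epn were 2.93 ± 0.17 against Fb-Par and 0.87 ± 0.14 against Fb-Skn (edgeR adjusted p = 1.2e-07, 1.7e-09 and 1.1e-04).

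*Cdc25c* (chr18:27528354-27550224, minus strand), a phosphatase that activates Cdk1, departed from the order of the other genes. It measured 9.43, 10.7 and 9.62 TPM in Fb-Epn, 6.94, 5.41 and 6.05 TPM in Fb-Par and 5.10, 5.90 and 4.15 TPM in Fb-Skn. Fb-Epn was above both other types, and the ranges of Fb-Par and Fb-Skn overlapped, with the higher mean in Fb-Par. Its log2 fold change of 0.70 ± 0.14 against Fb-Par was the smallest of the 44 genes (edgeR adjusted p = 9.0e-04), and against Fb-Skn it was 0.84 ± 0.15 (edgeR adjusted p = 2.2e-04). Between Fb-Par and Fb-Skn it was 0.13 ± 0.15 with a 95% confidence interval from -0.19 to 0.46 (edgeR adjusted p = 0.49). The remaining genes of this role were *Ccna2*, cyclin A2, which acts from S phase on, and *Cks2*, a small subunit that binds Cdk1. *Ccna2* averaged 29.7 ± 1.62 TPM (SD, n = 3) in Fb-Epn, 4.30 ± 0.317 TPM in Fb-Par and 14.4 ± 0.894 TPM in Fb-Skn, with log2 fold changes of 2.80, 0.90 and -1.90. *Cks2* averaged 59.5 ± 2.36 TPM (SD, n = 3) in Fb-Epn, 17.2 ± 6.61 TPM in Fb-Par and 34.4 ± 2.59 TPM in Fb-Skn. Its difference between Fb-Epn and Fb-Skn, a log2 fold change of 0.65, had an edgeR adjusted p of 6.8e-03, which became 0.016 to 0.030 with any 1 of the 6 libraries of these types left out, and the replicate block also ended the call. Over its 19 alternatives that p ranged from 3.2e-04 to 0.030.

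The mitotic kinases of the centrosomes and spindle poles were *Plk1* and *Aurka*. *Plk1* (chr1:192115966-192125989, plus strand) codes for a kinase that works from centrosome maturation to cytokinesis. It stood at 28.8, 27.2 and 28.0 TPM in Fb-Epn, 4.24, 3.39 and 4.48 TPM in Fb-Par and 12.6, 12.8 and 14.3 TPM in Fb-Skn. The types were far apart compared with the spread inside each of them. This gave log2 fold changes of 2.80 ± 0.12 in Fb-Epn against Fb-Par, 0.94 ± 0.10 in Fb-Epn against Fb-Skn and -1.85 ± 0.12 in Fb-Par against Fb-Skn (edgeR adjusted p = 5.5e-11, 2.1e-06 and 8.5e-09). *Aurka*, Aurora A, the kinase of the spindle poles, averaged 12.1 ± 0.566 TPM (SD, n = 3) in Fb-Epn, 3.77 ± 0.84 TPM in Fb-Par and 6.12 ± 1.36 TPM in Fb-Skn. Its lowest Fb-Skn library, at 4.59 TPM, was only just above its highest Fb-Par library, at 4.56 TPM. The log2 fold change of -0.84 between Fb-Par and Fb-Skn (edgeR adjusted p = 2.3e-03) was no longer called without Fb-Par 3, Fb-Skn 2 or Fb-Skn 3, at an adjusted p of 0.011 to 0.015 by edgeR, or with either limma fit. Over its 19 alternatives that p ranged from 4.6e-04 to 0.017.

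The chromosomal passenger complex corrects wrong attachments between chromosomes and spindle and later moves to the midzone. *Aurkb* (chr10:55626741-55634991, plus strand), Aurora B, its kinase, measured 13.4, 13.3 and 12.9 TPM in Fb-Epn, 2.77, 3.21 and 3.05 TPM in Fb-Par and 3.67, 4.39 and 3.74 TPM in Fb-Skn. Here Fb-Skn lay just above Fb-Par and far below Fb-Epn. Its value of 1.61 ± 0.11 between Fb-Epn and Fb-Skn was the largest log2 fold change of the 44 genes in that comparison (edgeR adjusted p = 1.1e-08). Against Fb-Par, Fb-Epn differed by 2.14 ± 0.11, and Fb-Par differed from Fb-Skn by -0.54 ± 0.12 (edgeR adjusted p = 6.6e-10 and 1.7e-03). The last of these calls was lost with limma and with a fit of only the 2 types compared, and its adjusted p ranged from 1.3e-03 to 0.029 over 19 alternatives by edgeR, DESeq2 and limma, with log2 fold changes from -0.58 to -0.30.

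The other passenger genes were *Birc5*, survivin, *Incenp*, the scaffold that binds Aurora B, and *Cdca8*, borealin. *Birc5* averaged 27.2 ± 2.67 TPM (SD, n = 3) in Fb-Epn, 4.21 ± 1.2 TPM in Fb-Par and 10.7 ± 1.03 TPM in Fb-Skn, and *Cdca8* averaged 34.1 ± 2.20, 7.30 ± 0.802 and 16.1 ± 2.26 TPM. *Incenp* averaged 21.8 ± 1.07, 7.62 ± 0.546 and 10.1 ± 2.26 TPM, and its Fb-Skn libraries, from 7.96 to 12.5 TPM, overlapped those of Fb-Par, from 7.02 to 8.10 TPM. The log2 fold change of *Incenp* between Fb-Par and Fb-Skn was -0.55 ± 0.14 (edgeR adjusted p = 3.1e-03). That call was lost without Fb-Par 1, Fb-Par 3 or Fb-Skn 3 (edgeR adjusted p = 0.011 to 0.017), and also with library size only, with both limma fits and with a fit of only the 2 types compared. Over its 19 alternatives the adjusted p ranged from 1.3e-04 to 0.056 and the log2 fold change from -0.70 to -0.34. The 4 genes of this complex had median log2 fold changes of 2.18, 1.09 and -0.92 in the 3 comparisons.

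Genes of the spindle assembly checkpoint and of the anaphase-promoting complex hold and then release the sister chromatids. The checkpoint genes *Bub1*, *Bub1b* and *Ttk* code for kinases or kinase-like proteins at unattached kinetochores. They averaged 12.9 ± 0.445, 10.1 ± 0.474 and 11.02 ± 0.421 TPM (SD, n = 3) in Fb-Epn, and 2.88 ± 0.527, 1.67 ± 0.214 and 2.01 ± 0.32 TPM in Fb-Par. Their Fb-Skn means of 6.59 ± 0.935, 3.28 ± 0.349 and 4.07 ± 0.682 TPM lay between those of the nerve-derived types. *Cdc20*, the activator of the anaphase-promoting complex, and *Ube2c*, its ubiquitin-conjugating enzyme, had log2 fold changes of 2.29 and 2.74 in Fb-Epn against Fb-Par, 0.79 and 0.81 in Fb-Epn against Fb-Skn, and -1.49 and -1.94 in Fb-Par against Fb-Skn. All 5 genes were called in each comparison.

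*Mad2l1* (chr4:97531083-97537086, plus strand), the checkpoint protein Mad2 that binds Cdc20, measured 23.6, 23.1 and 19.8 TPM in Fb-Epn, 7.81, 8.14 and 9.71 TPM in Fb-Par and 10.2, 11.4 and 6.73 TPM in Fb-Skn. Fb-Epn stood clear of the other types, while 1 Fb-Skn library fell below each Fb-Par library. The log2 fold change of Fb-Epn was 1.38 ± 0.18 against Fb-Par and 1.09 ± 0.18 against Fb-Skn (edgeR adjusted p = 1.5e-05 and 1.2e-04). For Fb-Par against Fb-Skn it was -0.29 ± 0.19, with a 95% confidence interval from -0.71 to 0.12 (edgeR adjusted p = 0.21). *Pttg1* (chr10:29020049-29026002, minus strand), securin, which keeps separase inactive until anaphase, measured 15.1, 16.5 and 15.3 TPM in Fb-Epn, 2.80, 4.85 and 2.88 TPM in Fb-Par and 12.5, 12.5 and 9.58 TPM in Fb-Skn. Unlike *Mad2l1*, its low type was Fb-Par alone, and Fb-Skn came close to Fb-Epn. Its log2 fold change was 2.17 ± 0.23 in Fb-Epn against Fb-Par and -1.87 ± 0.24 in Fb-Par against Fb-Skn (edgeR adjusted p = 2.1e-06 and 9.8e-06). Between Fb-Epn and Fb-Skn it was 0.30 ± 0.20, with a 95% confidence interval from -0.14 to 0.74 (edgeR adjusted p = 0.23).

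Centromere and kinetochore genes link chromosomes to spindle microtubules. *Cenpa* (chr6:27072166-27080856, minus strand), the histone H3 variant of centromeres, had low levels of 5.92, 5.38 and 4.92 TPM in Fb-Epn, 0.868, 1.09 and 1.59 TPM in Fb-Par and 2.62, 3.25 and 3.64 TPM in Fb-Skn. The 3 ranges did not overlap, but the gene was not called between Fb-Epn and Fb-Skn. There the log2 fold change was 0.63 ± 0.22, with a 95% confidence interval from 0.16 to 1.11 (edgeR adjusted p = 0.025), and the adjusted p ranged from 6.1e-03 with limma on log2(TPM + 1), which called it, to 0.10 over 19 alternatives. It was called in the other comparisons, at 2.20 ± 0.25 in Fb-Epn against Fb-Par and -1.57 ± 0.26 in Fb-Par against Fb-Skn (edgeR adjusted p = 3.5e-06 and 1.2e-04). *Cenpe*, a kinetochore motor, *Cenpf*, a large protein of the outer kinetochore, and *Ndc80* and *Nuf2*, subunits of the complex that grips microtubules, were called in each comparison. Their log2 fold changes ran from 1.91 for *Ndc80* to 2.79 for *Cenpf* in Fb-Epn against Fb-Par, from 0.83 for *Ndc80* to 1.00 for *Nuf2* in Fb-Epn against Fb-Skn, and from -1.89 for *Cenpf* to -1.08 for *Ndc80* in Fb-Par against Fb-Skn. *Ndc80* had the smallest relative spread in Fb-Epn, at 11.6 ± 0.166 TPM (SD, n = 3), a coefficient of variation of 1.43%.

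The spindle genes code for motors and for proteins that bind microtubules. *Kif18a* (chr3:100366168-100427030, plus strand), a motor that damps the movements of chromosomes on the spindle, had the lowest level of the 44 genes in each type. It measured 3.07, 4.33 and 2.81 TPM in Fb-Epn, 0.730, 0.904 and 0.458 TPM in Fb-Par and 1.15, 1.80 and 2.50 TPM in Fb-Skn, and its count in a library went down to 8. The ranges did not overlap, though the lowest Fb-Epn library was close to the highest Fb-Skn library. The log2 fold change of 0.78 ± 0.29 between Fb-Epn and Fb-Skn had a 95% confidence interval from 0.15 to 1.41 and was not called (edgeR adjusted p = 0.036). Fb-Epn was 2.29 ± 0.33 above Fb-Par, and Fb-Par against Fb-Skn gave -1.52 ± 0.35 (edgeR adjusted p = 4.1e-05 and 1.9e-03). The latter call was lost without Fb-Par 3 or without Fb-Skn 3, at an edgeR adjusted p of 0.012 in each case, and with limma on log2(TPM + 1), within a range of 1.1e-04 to 0.013 over 18 alternatives. The log2 fold change itself ranged from -1.75 to -0.71 over these.

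*Kif11*, the motor that pushes the spindle poles apart, *Kif2c*, a kinesin that takes microtubules apart, and *Tpx2*, an activator of Aurora A, had log2 fold changes of 2.13, 2.72 and 2.00 in Fb-Epn against Fb-Par. In Fb-Par against Fb-Skn they had -1.02, -1.61 and -0.97. *Nusap1* and *Tacc3*, which stabilise spindle microtubules, gave 2.35 and 2.26 in Fb-Epn against Fb-Par and 1.12 and 1.06 in Fb-Epn against Fb-Skn. *Hmmr* and *Ckap2*, which also bind spindle microtubules, lay closer together in Fb-Epn and Fb-Skn. *Hmmr* averaged 21.1 ± 0.512 TPM (SD, n = 3) in Fb-Epn, 5.52 ± 1.60 TPM in Fb-Par and 12.6 ± 1.24 TPM in Fb-Skn, and *Ckap2* averaged 26.9 ± 0.843, 7.14 ± 1.63 and 18.0 ± 1.03 TPM. Between Fb-Epn and Fb-Skn their log2 fold changes were 0.60 ± 0.15 and 0.44 ± 0.12 (edgeR adjusted p = 3.8e-03 and 4.8e-03). The call of *Hmmr* was lost without Fb-Epn 1, Fb-Epn 2, Fb-Skn 1 or Fb-Skn 2 (edgeR adjusted p = 0.012 to 0.020, and from 2.1e-04 to 0.020 over 19 alternatives). That of *Ckap2* was lost without Fb-Epn 2, Fb-Epn 3, Fb-Skn 1 or Fb-Skn 2 (edgeR adjusted p = 0.014 to 0.018, and from 5.4e-04 to 0.018 over 19 alternatives).

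Of the genes of the central spindle and cytokinesis, *Prc1*, which bundles antiparallel microtubules, was among the most precisely measured. It averaged 49.5 ± 2.63 TPM (SD, n = 3) in Fb-Epn, 8.96 ± 0.545 TPM in Fb-Par and 21.4 ± 0.408 TPM in Fb-Skn, with log2 fold changes of 2.47 ± 0.074, 1.07 ± 0.067 and -1.41 ± 0.078. *Kif23* and *Racgap1*, which together form centralspindlin, gave 2.11 and 2.85 in Fb-Epn against Fb-Par, 0.83 and 1.04 in Fb-Epn against Fb-Skn, and -1.29 and -1.81 in Fb-Par against Fb-Skn. *Ect2*, the exchange factor that activates RhoA at the furrow, and *Anln*, anillin, which ties the contractile ring to the membrane, differed by 2.32 and 1.65, by 1.09 and 0.66, and by -1.23 and -0.99 in the same order. *Kif20b*, a motor of late mitosis, gave 2.69, 1.02 and -1.67. *Kif20a*, the motor that carries passenger proteins to the midzone, averaged 30.0 ± 1.86 TPM (SD, n = 3) in Fb-Epn, 8.22 ± 1.77 TPM in Fb-Par and 20.3 ± 0.903 TPM in Fb-Skn. All 7 genes were called in each comparison, and *Kif20a* had the smallest difference between Fb-Epn and Fb-Skn among them, at 0.43 ± 0.11 (edgeR adjusted p = 4.0e-03). It was no longer called without Fb-Epn 2, Fb-Epn 3 or any 1 of the Fb-Skn libraries (edgeR adjusted p = 0.010 to 0.020, and from 2.6e-04 to 0.020 over 19 alternatives).

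The genes of mitotic chromosome structure ranged widely. *Top2a* (chr10:86901007-86932154, minus strand), the topoisomerase that untangles sister chromatids, measured 35.2, 37.3 and 37.5 TPM in Fb-Epn, 3.82, 4.49 and 5.38 TPM in Fb-Par and 12.5, 11.5 and 11.4 TPM in Fb-Skn. No other of the 44 genes differed as much between Fb-Epn and Fb-Par. Its log2 fold change was 3.02 ± 0.095 there, 1.49 ± 0.085 in Fb-Epn against Fb-Skn and -1.53 ± 0.10 in Fb-Par against Fb-Skn (edgeR adjusted p = 1.9e-12, 1.6e-09 and 9.2e-09). *Mki67* (chr1:207993895-208020454, minus strand), the Ki-67 protein that coats mitotic chromosomes and marks cycling cells, measured 23.3, 24.0 and 23.1 TPM in Fb-Epn, 4.02, 3.20 and 3.75 TPM in Fb-Par and 7.45, 8.28 and 8.44 TPM in Fb-Skn. It kept the same order of types with wide gaps between them. Its log2 fold changes were 2.69 ± 0.075, 1.40 ± 0.068 and -1.28 ± 0.079 (edgeR adjusted p = 5.2e-13, 2.6e-10 and 3.7e-09).

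*Smc4* (chr2:165601007-165629415, plus strand), an ATPase subunit that both condensin complexes contain, had the smallest difference of the 44 genes between Fb-Epn and Fb-Skn. It stood at 50.1, 50 and 55.0 TPM in Fb-Epn, 31.6, 32.4 and 30.5 TPM in Fb-Par and 36.6, 40.5 and 39.6 TPM in Fb-Skn. The ranges were separate, yet close together on the log scale. As log2 fold changes these were 0.73 ± 0.054 in Fb-Epn against Fb-Par, 0.27 ± 0.053 in Fb-Epn against Fb-Skn and -0.45 ± 0.055 in Fb-Par against Fb-Skn (edgeR adjusted p = 3.8e-08, 5.9e-04 and 6.0e-06). *Smc4* made up 5.34% of the summed TPM of the 44 genes in Fb-Epn, 13.6% of that of Fb-Par and 7.94% of that of Fb-Skn, and it was the gene with the highest TPM in Fb-Par and Fb-Skn, where *Cks2* and *Cdk1* led in Fb-Epn. *Cdca2*, which brings a phosphatase to chromosomes as they leave mitosis, had the second largest difference between Fb-Epn and Fb-Par, with 7.05 ± 0.356 TPM (SD, n = 3) against 0.901 ± 0.023 and a log2 fold change of 2.97 ± 0.17. In Fb-Skn it averaged 2.63 ± 0.0954 TPM.

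Fb-Skn did not sit at the same place between Fb-Par and Fb-Epn for each gene. Set on the log2 scale of the edgeR estimates with Fb-Par at 0% and Fb-Epn at 100%, Fb-Skn lay at a median of 59.6% of the gap, and the middle range of the 44 genes ran from 50.5% to 66.7%. The highest positions were those of *Pttg1* at 86.2%, *Kif20a* at 77.1%, *Ckap2* at 77.0% and *Cdk1* at 75.0%. *Aurkb* at 25.2%, *Mad2l1* at 21.0% and *Cdc25c* at -18.6% were the lowest. These positions come from estimates that share libraries, and the differences between genes were not tested. The spread between libraries was widest in Fb-Par, where the levels were lowest. The median coefficient of variation of a gene was 5.38% for Fb-Epn, 12.5% for Fb-Par and 9.73% for Fb-Skn, and the widest was 38.4%, for *Cks2* in Fb-Par.

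The 44 genes lie on 17 chromosomes. Where a gene overlaps another on the opposite strand, reads can be mixed if the counting did not use strand, and the setting is not given in the sources used here. *Ccna2* lies over its whole 6334 bases across *Exosc9* on the other strand, and *Kif20a* shares 1910 bases with *Cdc23*. Their values are uncertain to that extent. *Birc5*, *Tpx2* and *Ect2* overlap only small RNA genes on the other strand, whose highest count in a library was 1.

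Mitosis genes outside the list were counted from 5 further lists with 99 genes in the table. In Fb-Epn against Fb-Par, 72 were higher (20.2% of all tested genes) and 0 were lower (18.6%) by edgeR's adjusted p, with a median log2 fold change of 1.45, and 2 were lower at an unadjusted p under 0.05, with 0 by DESeq2 and limma. In Fb-Epn against Fb-Skn, 65 were higher (23.0% of all tested genes) and 3 lower (20.9%) with a median of 0.78. In Fb-Par against Fb-Skn, 11 were higher (23.2% of all tested genes) and 50 lower (22.4%) with a median of -0.69. Limma called 42 lower there, beside 14.5% of all tested genes. The 27 other spindle and centrosome genes had medians of 2.46, 1.01 and -1.39. Among them, *Kif14*, a motor of cytokinesis, differed most, at 3.55 ± 0.30 in Fb-Epn against Fb-Par (edgeR adjusted p = 1.8e-07) and -2.44 ± 0.33 in Fb-Par against Fb-Skn (edgeR adjusted p = 1.6e-05). *Cit*, citron kinase, and *Gtse1*, a microtubule-binding protein of G2, went the other way between Fb-Epn and Fb-Skn, at -0.79 ± 0.076 and -0.58 ± 0.13 (edgeR adjusted p = 5.6e-07 and 1.4e-03). Limma called only 1 gene of that list lower there. It called 13% of all tested genes lower on log2(TPM + 1) and 12.7% on log2(TPM + 0.1). The 31 other kinetochore and checkpoint genes had medians of 1.27, 0.70 and -0.57, and the 14 other regulators of cyclins, Cdk1 and the anaphase-promoting complex had 1.59, 0.89 and -0.80.

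The list of the anaphase-promoting complex took 12 genes, its chain-extending enzyme *Ube2s* among them, and left out the subunit genes *Anapc13*, *Anapc15* and *Anapc16*, of which the last 2 were each called in 2 comparisons. The 12, whose products work with those of *Cdc20* and *Ube2c*, had medians of 0.09, 0.03 and -0.13, and 1, 3 and 6 of them were called by edgeR in the 3 comparisons, where 38.8%, 43.9% and 45.6% of all tested genes were called. Of the 6, 3 were lower in Fb-Par. Limma called 0 of the 12 lower there, where it called 14.5% of all tested genes lower. The 15 condensin and cohesin genes, the partners of *Smc4* and the rings that hold sister chromatids, had medians of 0.22, 0.43 and -0.05. These medians mix unlike parts. In Fb-Epn against Fb-Par, the condensin genes ran from 1.04 for *Ncapd3* to 2.69 for *Ncapg*, apart from *Ncaph2* at 0.18. The cohesin genes ran from -0.12 for *Stag2* to 0.78 for *Rad21* there. By edgeR's adjusted p, 8 of the 15 were called higher in Fb-Epn against Fb-Par (20.2% of all tested genes) and 13 against Fb-Skn (23.0% of all tested genes), led by *Ncapg* at 2.69 ± 0.21 and *Ncapg2* at 1.53 ± 0.092 (edgeR adjusted p = 4.8e-08 and 3.0e-09). In Fb-Par against Fb-Skn, 5 were called higher and 4 lower, with 23.2% and 22.4% of all tested genes.

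The 40 genes of DNA replication, which act in S phase before mitosis, were set beside the members. Against Fb-Par, 37 were higher in Fb-Epn (20.2% of all tested genes) with a median log2 fold change of 1.12. Against Fb-Skn, 34 were higher (23.0% of all tested genes) and 1 lower (20.9%), with a median of 0.97. In Fb-Par against Fb-Skn the replication genes had a median of -0.32, with 1 higher (23.2% of all tested genes) and 11 lower by edgeR's adjusted p. These 11 are 27.5% of the list, near the 22.4% of all tested genes. DESeq2 and limma each called 5 lower, where DESeq2 called 20.4% of all tested genes lower and limma 14.5%. *Rrm2*, a subunit of ribonucleotide reductase, differed most in Fb-Epn against Fb-Par, at 3.12 ± 0.20, and its partner *Rrm1* was lower in both nerve-derived types than in Fb-Skn, at -1.21 ± 0.04 and -2.03 ± 0.042 (edgeR adjusted p = 8.9e-09, 3.1e-12 and 1.5e-14).

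**Figure D2:**
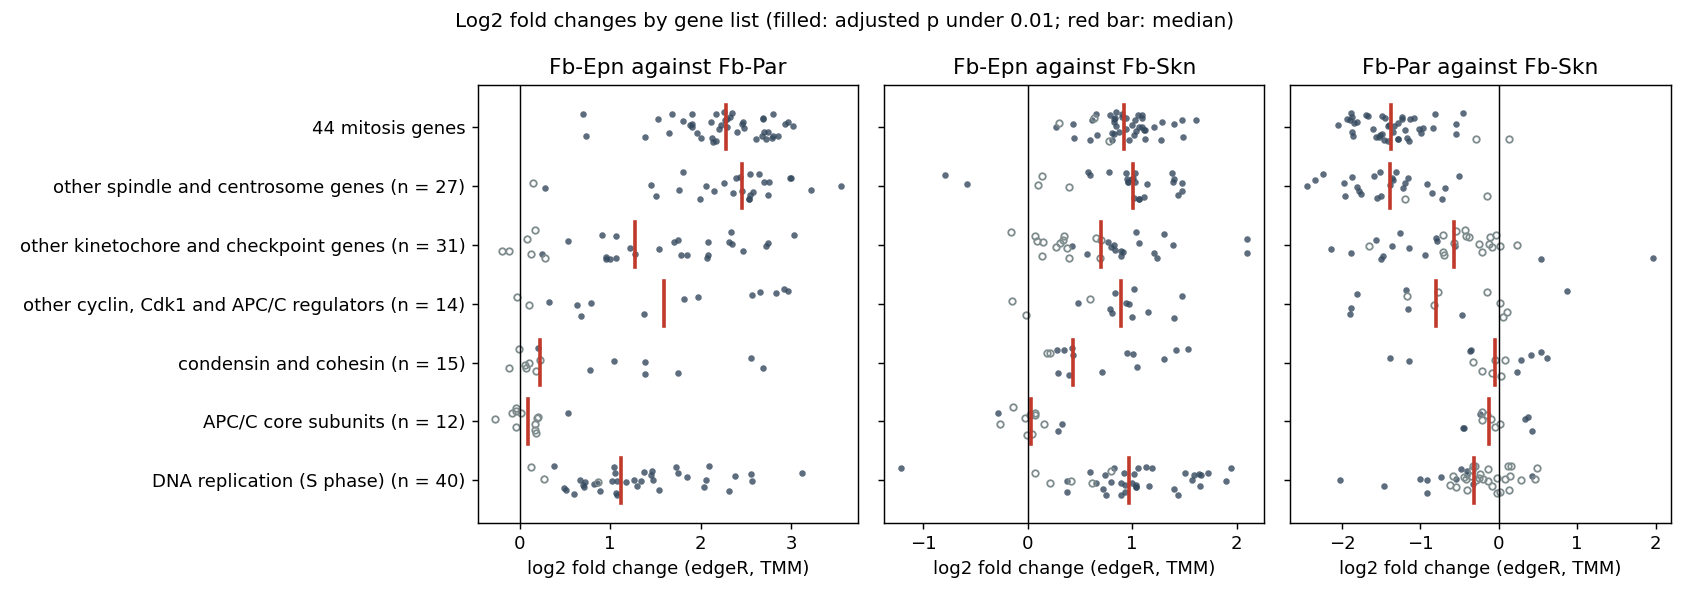
Log2 fold changes by edgeR of the 44 mitosis genes, of 5 further mitosis lists and of DNA replication genes in the 3 comparisons, 1 point per gene, filled where the adjusted p was under 0.01, with the median as a red bar. The 44 mitosis genes have medians of 2.28, 0.92 and -1.38, and the 12 listed genes of the anaphase-promoting complex have medians of 0.09, 0.03 and -0.13.

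Markers of the cell types that such cultures can hold were read from the same libraries. The fibroblast markers (7 of 8 in the table, *Col1a1* the most abundant) summed to 31300, 31100 and 31300 TPM in Fb-Epn, 26300, 27200 and 26200 TPM in Fb-Par and 29800, 31000 and 30700 TPM in Fb-Skn. *Col1a1* and *Col3a1* carry that sum, and of the 7 genes 3 were higher and 4 lower in Fb-Epn against Fb-Par. Of the Schwann cell genes, *Sox10* stood at 13.9, 15 and 14.7 TPM in Fb-Epn, at 30.3, 30.1 and 32.3 TPM in Fb-Par and at 0 in each Fb-Skn library, where *Erbb3* and *Cdh19* were at 0 as well. *S100b*, more abundant, measured 121, 137 and 132 TPM in Fb-Epn, 117, 125 and 116 TPM in Fb-Par and 7.79, 9.21 and 6.88 TPM in Fb-Skn, so that the nerve-derived types overlapped. The macrophage and leukocyte markers (7 of 8, led by *Cd68*) summed to 279.7, 286 and 318 TPM in Fb-Epn, 75.9, 73.5 and 75.7 TPM in Fb-Par and 24.3, 24.4 and 25.2 TPM in Fb-Skn. Fb-Epn thus had the highest sum of macrophage markers.

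Of the perineurial markers, 7 of 7 in the table and led by *Slc2a1*, the sum was 199, 196 and 212 TPM in Fb-Epn, 46.5, 47.9 and 51.6 TPM in Fb-Par and 76.8, 86.1 and 82.2 TPM in Fb-Skn, with *Lypd2* at 0 throughout. The sum has the order of types that the mitosis genes have. It is carried by *Slc2a1* and *Msln* in Fb-Epn and mostly by *Slc2a1* in the other types. There *Msln* measured 0.418 to 0.551 TPM in Fb-Par and 1.05 to 1.93 TPM in Fb-Skn. Of 4 perineurial markers tested in Fb-Epn against Fb-Par, 3 were higher and 1, *Tenm2*, was lower. Pericyte and smooth muscle markers (8 of 8, led by *Mcam*) had sums in the opposite order, at 110.3, 113 and 110.2 TPM in Fb-Epn, 555, 583 and 567 TPM in Fb-Par and 284, 290.4 and 298 TPM in Fb-Skn. Single genes of that list did not all follow the sum, since 5 of the 8 were higher in Fb-Epn against Fb-Skn and 3 were lower. Endothelial markers (7 of 8, led by *Tek*) summed to 15.6, 16.3 and 15.9 TPM in Fb-Epn, 11.4, 11.8 and 10.4 TPM in Fb-Par and 1.31, 1.60 and 1.00 TPM in Fb-Skn. Of 4 endothelial markers tested in Fb-Epn against Fb-Par, 2, *Cdh5* and *Tie1*, were higher and 0 were lower. *Tek* itself was lower in mean TPM in Fb-Epn than in Fb-Par but not called. Keratinocyte markers (7 of 8, led by *Krt10*) summed to 2.51 to 4.76 TPM in the 9 libraries, with *Krt1* at 0 in each. The part of these cells in the levels of the mitosis genes was not tested.

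The promoters of the genes were searched for letters known from cell cycle promoters, in RefSeq sequences of the build GRCr8 that run from 250 bases before to 50 bases after the start of a gene. Of the 44 genes, 36 were matched by symbol, with 37 promoters since *Kif2c* had 2. *Aurkb*, *Ccna2*, *Cdca2*, *Foxm1*, *Incenp*, *Racgap1*, *Tpx2* and *Ube2c* were not matched. The cell cycle genes homology region (CHR) was searched as TTTGAA or TTCGAA on both strands, the CCAAT box as CCAAT on both strands, and E2F letters as TTGGCGC or TTCGCGC or TTCCCGC or TTGCCGC on both strands. CHR letters were in 27 of the 37 promoters (73%), against 19.7% of all 33469 promoters and 13.7% of the 10653 promoters of tested genes. CCAAT was in 27 (73%), against 37.5% of all promoters, and in 19 (51.4%) it was present at 2 or more places, against 11.2% of all promoters. Both kinds of letters were in 22 (59.5%), against 7.95% of all promoters. E2F letters were in 6 (16.2%), against 9.52% of all promoters and 17% of those of tested genes.

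CHR letters lay at a median of -30 from the start of the gene and CCAAT letters at a median of -115. Of the 36 places with CHR letters, 2 overlapped a CCAAT, and 1 of the 64 places with CCAAT overlapped E2F letters. *Aurka*, *Bub1*, *Kif18a* and *Kif2c* had neither CHR nor CCAAT letters in this window. The 27 matched genes with CHR letters had median log2 fold changes of 2.29, 0.94 and -1.29 in the 3 comparisons, and the 9 without had 2.27, 0.85 and -1.45. A match is a description of the letters and no evidence of binding.

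The promoters of 5 genes are printed 5′ to 3′ on the strand of the gene, to show the letters in genes that differed much between the types and in the genes with the smallest differences between Fb-Epn and Fb-Par. *Top2a* (GRCr8 chr10:84473044-84473343, minus strand), *Cdk1* (chr20:19265043-19265342, plus strand) and *Plk1* (chr1:186147408-186147707, plus strand) stand for the former, and *Cdc25c* (chr18:26630243-26630542, minus strand) and *Smc4* (chr2:155550012-155550311, plus strand) for the latter. Capitals mark CHR letters, also read from the other strand as TTCAAA, and CCAAT letters, also read from the other strand as ATTGG. Both kinds are present in each of the 5 sequences, in *Cdc25c* at 1 place for CHR and at 4 for CCAAT. Not all genes that differed much have both. *Cdca3* and *Ccnb1*, at 2.93 and 2.68 in Fb-Epn against Fb-Par, have CCAAT but no CHR letters, and *Kif2c*, at 2.72, has neither.
Top2a: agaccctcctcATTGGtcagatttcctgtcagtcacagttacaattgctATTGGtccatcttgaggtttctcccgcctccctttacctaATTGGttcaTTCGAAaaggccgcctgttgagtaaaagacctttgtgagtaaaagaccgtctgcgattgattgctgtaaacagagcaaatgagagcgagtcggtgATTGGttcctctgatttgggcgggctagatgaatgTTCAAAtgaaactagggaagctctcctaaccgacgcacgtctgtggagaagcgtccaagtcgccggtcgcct
Cdk1: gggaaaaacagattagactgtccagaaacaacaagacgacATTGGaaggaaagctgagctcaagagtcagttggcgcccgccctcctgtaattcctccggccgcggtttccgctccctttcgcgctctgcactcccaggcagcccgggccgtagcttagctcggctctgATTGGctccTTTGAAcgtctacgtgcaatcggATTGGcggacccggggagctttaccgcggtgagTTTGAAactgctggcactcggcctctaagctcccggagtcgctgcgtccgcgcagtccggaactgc
Plk1: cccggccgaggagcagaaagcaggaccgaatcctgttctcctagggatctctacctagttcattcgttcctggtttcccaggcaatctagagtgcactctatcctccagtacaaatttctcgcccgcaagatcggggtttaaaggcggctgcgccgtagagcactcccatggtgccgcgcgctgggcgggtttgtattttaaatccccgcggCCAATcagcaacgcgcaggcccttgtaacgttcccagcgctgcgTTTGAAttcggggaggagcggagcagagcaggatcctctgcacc
Cdc25c: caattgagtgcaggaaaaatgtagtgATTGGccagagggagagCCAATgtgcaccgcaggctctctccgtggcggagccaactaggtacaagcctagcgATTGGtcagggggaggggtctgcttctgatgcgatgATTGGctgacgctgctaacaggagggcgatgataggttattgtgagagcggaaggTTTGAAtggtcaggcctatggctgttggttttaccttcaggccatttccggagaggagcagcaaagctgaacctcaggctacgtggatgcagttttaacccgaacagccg
Smc4: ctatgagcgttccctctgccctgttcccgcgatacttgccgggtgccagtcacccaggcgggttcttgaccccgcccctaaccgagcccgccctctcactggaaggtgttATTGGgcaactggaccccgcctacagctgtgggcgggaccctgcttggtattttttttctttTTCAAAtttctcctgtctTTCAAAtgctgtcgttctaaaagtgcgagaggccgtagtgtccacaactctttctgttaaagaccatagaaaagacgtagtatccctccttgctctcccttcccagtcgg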

How the data were processed

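RNA was measured in 9 libraries of rat fibroblasts, 3 of each type, grouped by their labels. Per the labels and the authors' methods, directional poly(A) libraries gave paired-end reads. The submitters' processing notes name FastQC 0.11.7, Trimmomatic 0.38, HISAT2 2.1.0, featureCounts 1.6.3 and the build rn6, and the annotation release is not given in the sources used here. The authors deposited raw counts per gene and TPM, both used as they stand, and FPKM, not used here.

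Counts were tested with edgeR 4.0.16 in R 4.3.3 (TMM, default expression filter, quasi-likelihood fit of all 9 libraries in 1 model), with Benjamini-Hochberg adjustment over 13273 genes in each comparison and a threshold of 0.01. SE is the log2 fold change divided by the root of F. The code was tested on simulated data. Levels are TPM, with SD between libraries. Full values are given for the largest and smallest log2 fold change of each comparison, for genes not called in each comparison, and for *Mki67*, *Ccnb1*, *Cdk1*, *Plk1*, *Top2a* and *Foxm1*. The members and lists were chosen with earlier results of these data known. Members were matched by gene symbol, and *Col1a2*, *Pecam1*, *Itgam* and *Trp63* were not analysed here. Alternatives used DESeq2 1.42.0, limma 3.58.1, other scalings and filters. Libraries of a type differed by more than counting noise (chi-square per degree of freedom 3.18 to 5.45), which does not show that they are separate animals or cultures, and each was 1 sample in the fit. Figures used Python 3.11.15 and matplotlib 3.10.9.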

Additional observations from a re-analysis of the deposited data

How the results depend on the processing

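No log2 fold change of the 44 genes that was called changed direction under any alternative, and the further lists were not run through all of them. Of Fb-Epn against Fb-Par, all 44 calls held at an adjusted p under 0.01 in each setting that tested the gene. The median log2 fold change of the mitosis genes moved from 2.28 to 1.93 with limma on log2(TPM + 1). For Fb-Epn against Fb-Skn the median moved from 0.92 to 1.01 with library size only, 0.99 with limma on log2(TPM + 1) and 1.06 with limma on log2(TPM + 0.1). For Fb-Par against Fb-Skn it moved from -1.38 to -1.28, -1.01 and -1.23 in the same settings. With library size only, the median of all tested genes moved too, to 0.09 and 0.08, and relative to it the members stayed at 0.93 and -1.37. The cause of the moves with limma was not tested. In Fb-Epn against Fb-Skn and Fb-Par against Fb-Skn these limma fits also put the median of all tested genes at 0.12 to 0.14, beside 0.00 and -0.01 with TMM, and relative to it the members lay at 0.86 and 0.92 in the former and at -1.13 and -1.36 in the latter comparison. With a change of more than 4-fold required as well, the genes with a higher level in Fb-Epn against Fb-Par went from 44 to 32. Those higher in Fb-Epn against Fb-Skn went from 41 to 0, and those lower in Fb-Par against Fb-Skn from 42 to 1. The log2 fold changes of the members reached 1.61 at the highest in the former and -2.05 at the lowest in the latter comparison. Leaving out 1 library at a time gave 37 to 41 higher genes for Fb-Epn against Fb-Skn and 39 to 42 lower genes for Fb-Par against Fb-Skn. In the latter comparison limma called 38 lower on log2(TPM + 1) and 39 on log2(TPM + 0.1), beside 14.5% of all tested genes in each fit. Same-numbered libraries did not deviate together (Pearson's r over genes from -0.088 to 0.021), which gave no sign of pairing by replicate number. With 3 libraries per type, a weak effect shared by such libraries could be missed, so pairing is not excluded. With a replicate block, Fb-Epn had 44 higher genes against Fb-Par and 40 against Fb-Skn, and Fb-Par had 42 lower genes against Fb-Skn, with medians of 2.27, 0.92 and -1.38. The call lost with the block was *Cks2* between Fb-Epn and Fb-Skn. The lowest count of a member in a library was 8, for *Kif18a* in Fb-Par, and the effect of depth was not tested.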
